A study of Mus musculus with 8 samples.

Results

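Keratin-associated proteins were represented by 52 of the 45101 probe sets in the table of deposited signals. They are all probe sets whose platform annotation lists a symbol beginning with Krtap, or Gm10228, Gm10229, Gm11559 or 1110025L11Rik, genes that lie among the Krtap genes in the RefSeq annotation. The family was chosen because earlier values of these arrays showed it low in DNCB skin against sham skin, so the values of that comparison are a description of the members and no test is drawn from them. The annotation lists 48 such symbols. A single symbol stood against 46 of the probe sets, covering 41 symbols, and 6 probe sets listed several near-identical genes and cannot be assigned to any of them. In RefSeq 26 of the probe sets belong to genes of chromosome 16, 16 to chromosome 11, 6 to chromosome 7, 3 to chromosome 10 and 1 to chromosome 1.

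Dorsal skin of Balb/c mice was profiled on 8 arrays, in 3 groups. DNCB+HY209 skin (titled DNCB_HY209(+), n = 3) received the contact sensitizer 1-chloro-2,4-dinitrobenzene (DNCB) over 15 days and a PEG gel with 5% HY209, a compound that activates GPCR19, the membrane receptor for bile acids, during the last 7 of them. DNCB skin (titled DNCB_HY209(-), n = 3) received DNCB in the same way with vehicle. Sham skin (titled Sham, n = 2) is given by its source name as having had neither agent, although its protocol fields carry the DNCB text. No genetic change is given for any group, and the labels state neither age nor sex nor whether each array came from its own animal, so that spread within a group may be technical. Whole skin was used, and a lower signal from fewer follicle cells cannot be told apart from less RNA per cell.

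Keratin-associated proteins fill the space between the keratin filaments of the hair shaft and are cross-linked to them as the fibre hardens. They are made late, in the cortex and cuticle of a growing follicle, after the hair keratins, and a resting follicle makes little or none. By composition they fall into high glycine-tyrosine, high sulfur and ultra-high sulfur proteins, the sulfur being that of cysteine. Each class is encoded by small, intron-poor genes packed in tandem arrays.

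The start regions of these genes are shown as a description, beside the likeness of the members across arrays. Each of the 43 probe sets brighter than the array median on at least 2 arrays correlated with the mean of the others over the 8 arrays at a Pearson r of 0.679 or more, with a median of 0.976. For the 9 dimmer ones the lowest was 0.541 and the median 0.784. These are descriptions of arrays that share group and quality. The members were chosen as low in DNCB against sham skin and passed the filter mostly through the sham arrays. That choice builds in part of the likeness, and no link between it and the start regions was tested. RefSeq start regions (GRCm38.p6, from 250 bases before to 50 after the start) were at hand for 45 of the 48 genes. The TATA box letters TATAAA, on either strand, occurred in 82.2% of the 45 and in 13.6% of all 32851 start regions of the table. On the gene's own strand, with the match beginning between positions -40 and -20 (position 0 being the first transcribed base), the shares were 62.2% and 1.99%. The core CTTTGAA bound by LEF1, on either strand, was in 17.8% and 5.14%. The motifs are different letters and were counted separately, and many of the genes are near copies of each other, so their matches are not independent. The 250 bases before the start are printed for 5 genes, chosen after their values were seen to cover the classes and both strong and weak differences, with matches to either motif in capitals. The sequences are those of the C57BL/6J reference and not of the Balb/c mice. They lie at chr16:89487953-89488202 (minus strand, Krtap8-1), chr16:88962874-88963123 (minus strand, Krtap16-3), chr16:88828759-88829008 (plus strand, Krtap15), chr11:99644090-99644339 (minus strand, Krtap4-7) and chr7:142297135-142297384 (minus strand, Krtap5-1).
Krtap8-1: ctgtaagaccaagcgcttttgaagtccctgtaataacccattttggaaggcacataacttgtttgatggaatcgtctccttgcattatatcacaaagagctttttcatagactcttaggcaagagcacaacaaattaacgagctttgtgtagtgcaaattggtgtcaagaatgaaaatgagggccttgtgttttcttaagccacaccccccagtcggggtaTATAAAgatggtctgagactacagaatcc
Krtap16-3: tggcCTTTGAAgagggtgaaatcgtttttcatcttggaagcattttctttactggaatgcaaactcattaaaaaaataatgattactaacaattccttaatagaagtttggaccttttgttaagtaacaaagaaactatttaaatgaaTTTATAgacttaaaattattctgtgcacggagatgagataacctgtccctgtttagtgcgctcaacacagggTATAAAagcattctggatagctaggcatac
Krtap15: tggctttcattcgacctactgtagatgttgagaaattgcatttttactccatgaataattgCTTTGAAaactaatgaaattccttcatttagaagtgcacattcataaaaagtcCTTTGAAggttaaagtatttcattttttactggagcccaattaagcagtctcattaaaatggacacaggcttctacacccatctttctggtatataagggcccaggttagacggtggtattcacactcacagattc
Krtap4-7: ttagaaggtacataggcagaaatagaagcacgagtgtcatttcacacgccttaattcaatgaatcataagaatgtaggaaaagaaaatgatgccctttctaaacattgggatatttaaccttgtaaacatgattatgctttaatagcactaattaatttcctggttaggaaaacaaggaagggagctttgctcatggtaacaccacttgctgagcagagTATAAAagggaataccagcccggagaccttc
Krtap5-1: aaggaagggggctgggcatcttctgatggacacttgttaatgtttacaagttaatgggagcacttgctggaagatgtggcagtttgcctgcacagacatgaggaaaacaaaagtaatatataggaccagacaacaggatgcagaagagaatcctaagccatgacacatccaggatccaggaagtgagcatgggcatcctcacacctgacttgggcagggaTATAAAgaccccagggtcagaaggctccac
In Krtap8-1, Krtap16-3, Krtap4-7 and Krtap5-1 a match to TATAAA stands close before the start. Krtap15 has no match to these exact letters. Variants of them were not counted, and its printed sequence holds tatataag. The LEF1 core has 2 matches in Krtap15 and is also matched in Krtap16-3.

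Signals are log2 values, and the median of all probe sets on an array lay between 4.07 and 4.22, a level below which a log2 difference is approximate. The median signal of the 52 probe sets was 4.71, 3.32 and 3.24 in DNCB+HY209 skin, 3.30, 3.16 and 3.66 in DNCB skin and 6.95 and 5.41 in sham skin, each group in the order of its array numbers. Both sham arrays stood above all others, and DNCB+HY209 array 1 stood between them and the remaining 5. Of the 52, 34, 12 and 11 exceeded the array median in DNCB+HY209 skin, 13, 9 and 18 in DNCB skin and 45 and 42 in sham skin. The filter on dim probe sets, a signal above the array median on at least 2 arrays, was passed by 43 of the 52, mostly through the sham arrays, and 9 stayed dim. The 9 were one probe set each of Krtap13, Krtap6-3, Krtap31-1, Krtap4-2, Krtap4-16, Krtap5-2, Krtap5-3 and Krtap5-4 and 1430625_at, which lists Krtap3-2 and Krtap3-3.

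**Figure D1:**
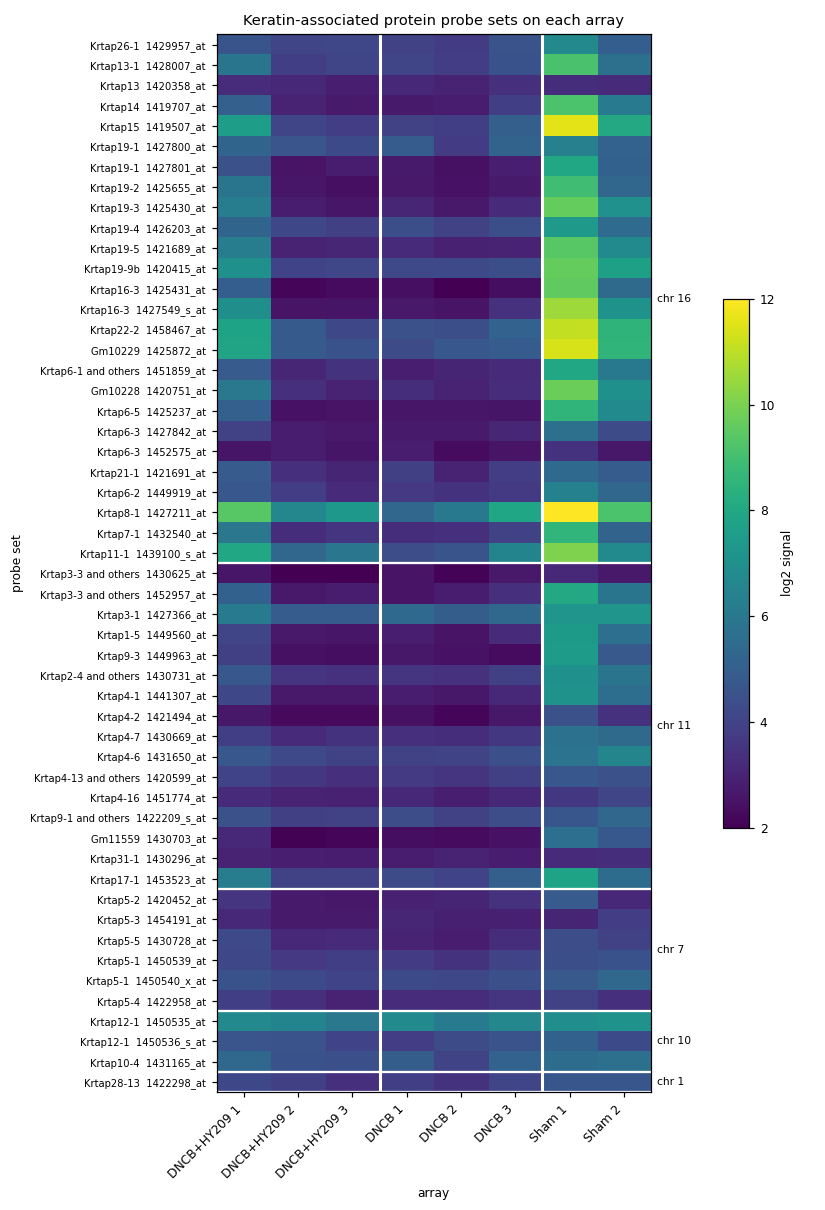
Log2 signal (colour) of each of the 52 keratin-associated protein probe sets (rows, grouped by chromosome and ordered along it) on each array (columns, by group). Sham arrays 1 and 2 and DNCB+HY209 array 1 are the bright columns in the chromosome 16 rows, and the chromosome 7 rows differ little between columns.

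All 52 probe sets had a lower mean in DNCB skin than in sham skin. Their log2 differences ran from -5.96 to -0.12 with a median of -2.20, against a median of -0.03 over the 45037 probe sets that are no controls. The arrays of the groups did not overlap, DNCB being lower, for 45 of the 52, where 16.3% of all probe sets did so. In the fit of all 8 arrays with limma, 11 of the 43 tested were lower at an adjusted p under 0.05, against 0.19% of all tested probe sets. Because the family was chosen from this comparison, these shares describe it and support nothing. The 11 were Krtap4-1, Krtap4-6, Krtap4-7, Gm11559, Krtap1-5, Krtap3-1, Krtap6-5, Gm10228, Gm10229 and the shared probe sets 1451859_at (Krtap6-1, Gm10228 and 1110025L11Rik) and 1430731_at (Krtap2-4, Gm11937 and Gm11938). The count moved when single arrays were left out. Without either sham array that group is 1 array, so a lower count there cannot be told apart from the effect of fewer arrays. Leaving out sham array 1 gave 0, and leaving out sham array 2 gave 1. It was likewise 1 if either DNCB array 1 or DNCB array 2 was dropped. Dropping the second DNCB+HY209 array gave 5, dropping the third gave 10 and dropping the first gave 26. Without DNCB array 3 the count was 8. All these counts are of the family alone, without the share of all probe sets called in the same fit.

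Of the measures of array quality, the spike-in level was lower on every DNCB array and the Gapdh ratio overlapped between the groups. Bacterial control RNAs added to each sample averaged 10.71, 9.25 and 10.83 in DNCB skin, against 10.99 and 11.62 in sham skin, in log2 signal. A fit with that level as a term gave a median difference of -1.93 over the 52 and called 0 of them. For Gapdh, the signal at the 3' end over that at the 5' end, a measure of RNA integrity, was 2.79, 2.10 and 7.35 in DNCB skin, against 4.46 and 2.81 in sham skin. With this term the median was -2.19 and 26 were called. Both counts are of the family alone, without the share of all probe sets called in the same fit.

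The 18 probe sets of high glycine-tyrosine genes, all on chromosome 16, had a median log2 difference of -4.06 in DNCB against sham skin. Krtap16-3, read by 1427549_s_at, had signals of 2.69, 2.52 and 3.41 in DNCB skin, against 10.55 and 7.12 in sham skin, a difference of -5.96 (SE 1.34). Its other probe set, 1425431_at, gave 2.41, 2.00 and 2.38 in DNCB skin, against 9.56 and 5.47 in sham skin, a difference of -5.25 (SE 1.12). Both probe sets lay below the array medians on every DNCB array.

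The Krtap19 genes, neighbours of Krtap16-3, behaved alike. Krtap19-3 had signals of 3.07, 2.69 and 3.18 in DNCB skin, against 9.64 and 7.06 in sham skin, a difference of -5.37 (SE 1.04). Krtap19-5 had 3.21, 2.90 and 2.94 in DNCB skin, against 9.40 and 6.79 in sham skin, a difference of -5.08 (SE 0.98). Krtap19-9b had 4.21, 4.21 and 4.39 in DNCB skin, against 9.66 and 7.69 in sham skin, a difference of -4.40 (SE 0.86). No DNCB array reached either sham array in these 3 genes. Krtap19-2 and Krtap19-4 differed by -4.50 and -2.18. The 2 probe sets of Krtap19-1 disagreed in size, with -3.89 for 1427801_at and -1.13 for 1427800_at. The DNCB and sham arrays overlapped only in the second of them.

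Further along the cluster, Krtap22-2 had signals of 4.46, 4.39 and 5.16 in DNCB skin, against 11.07 and 8.51 in sham skin, a difference of -5.12 (SE 1.02). Krtap6-5 had 2.60, 2.61 and 2.55 in DNCB skin, against 8.53 and 6.77 in sham skin, a difference of -5.06 (SE 0.75). Gm10229, which lies between Krtap22-2 and Krtap6-1, had 4.33, 4.71 and 4.91 in DNCB skin, against 11.40 and 8.56 in sham skin, a difference of -5.33 (SE 1.01). Gm10228, nearby, differed by -5.20 (SE 0.93). Smaller differences were seen for Krtap6-2 (-2.24), Krtap21-1 (-1.62) and Krtap6-3 (-2.16 for 1427842_at and -0.52 for 1452575_at, which did not pass the filter).

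Krtap8-1 and Krtap11-1, at the far end of the chromosome 16 cluster, were above the array median on every DNCB array. So were Krtap22-2, Gm10229 and Krtap19-9b. Krtap8-1, a high glycine-tyrosine gene, had signals of 5.31, 6.06 and 7.90 in DNCB skin, against 11.98 and 9.16 in sham skin, a difference of -4.15 (SE 1.04). Krtap11-1, a high sulfur gene, had 4.36, 4.58 and 6.51 in DNCB skin, against 10.06 and 6.73 in sham skin, a difference of -3.25 (SE 1.07). In both, DNCB array 3 was the highest of its group, 2.22 and 2.04 log2 units above the mean of DNCB arrays 1 and 2. Only 4 of the 52 probe sets exceeded that mean by over 1 unit on DNCB array 3, the other two being Krtap14 (1.11) and Krtap15 (1.11), and the median over all 52 was 0.34. Krtap7-1, which lies between Krtap8-1 and Krtap11-1, had 3.29, 3.37 and 3.93 in DNCB skin, against 8.57 and 5.17 in sham skin.

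Among the other high sulfur genes, Krtap15 had signals of 3.98, 3.84 and 5.02 in DNCB skin, against 11.60 and 8.05 in sham skin, a difference of -5.54 (SE 1.22). Its neighbour Krtap14 differed by -4.56 (SE 0.90), Krtap13-1 by -3.27 and Krtap26-1 by -1.76. Krtap13 differed by -0.12, with signals between 2.95 and 3.36 in DNCB skin and between 3.24 and 3.32 in sham skin, all under the array medians. On chromosome 11, Krtap3-1 had 5.43, 4.93 and 5.35 in DNCB skin, against 7.20 and 7.21 in sham skin, a difference of -1.97 (SE 0.37). The sham arrays, far apart in the chromosome 16 genes, were level in Krtap3-1. Krtap1-5 differed by -3.70 (SE 0.57). The 2 probe sets that list Krtap3-2 and Krtap3-3 gave -4.07 and -0.45, the second staying dim on every array.

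The ultra-high sulfur genes had a median difference of -0.89 over 15 probe sets. Their median signal was near the array median even in sham skin, at 4.73 and 4.51, against 8.55 and 5.48 for the high glycine-tyrosine genes, and 5 of the 15 did not pass the filter, so the size of a difference is limited there and the classes are not ranked by it. Krtap4-7 had signals of 3.33, 3.31 and 3.64 in DNCB skin, against 5.75 and 5.47 in sham skin, a difference of -2.18 (SE 0.24). Krtap4-6 had 3.96, 4.06 and 4.45 in DNCB skin, against 5.81 and 6.53 in sham skin, a difference of -2.01 (SE 0.30). Krtap4-1 and Krtap9-3 differed by -3.51 (SE 0.52) and -3.65 (SE 0.70). In Krtap4-6 sham array 2 was the higher of the sham arrays, unlike in the chromosome 16 genes. Krtap17-1 had 4.32, 4.0049 and 5.03 in DNCB skin, against 7.80 and 5.52 in sham skin, a difference of -2.21 (SE 0.78).

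The Krtap5 genes of chromosome 7, also of the ultra-high sulfur class, had low signals in all groups. Krtap5-1, read by 1450540_x_at, had signals of 4.24, 4.18 and 4.44 in DNCB skin, against 4.79 and 5.34 in sham skin, a difference of -0.77 (SE 0.24). Its other probe set differed by -0.68, Krtap5-5 by -1.12 and Krtap5-2, Krtap5-3 and Krtap5-4 by -0.86, -0.49 and -0.30. Krtap12-1 of chromosome 10, a high sulfur gene, had 6.76, 6.09 and 6.61 in DNCB skin, against 6.88 and 7.10 in sham skin, a difference of -0.51 (SE 0.29). It was above the array median on all 8 arrays. Krtap10-4, from the same cluster, differed by -0.90, and Krtap28-13, alone on chromosome 1, by -0.86. The second Krtap12-1 probe set, 1450536_s_at, had 3.83, 4.28 and 4.56 in DNCB skin, against 5.09 and 4.23 in sham skin, so that the groups overlapped. Krtap28-13 had 3.87, 3.45 and 4.10 in DNCB skin, against 4.68 and 4.66 in sham skin, without overlap. Of the mixed probe sets of chromosome 11, 1420599_at (Krtap4-13, Gm11554 and Gm11569) differed by -0.89 and 1422209_s_at (Krtap9-1, Gm11559, Gm11567 and Gm11568) by -0.73.

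**Figure D2:**
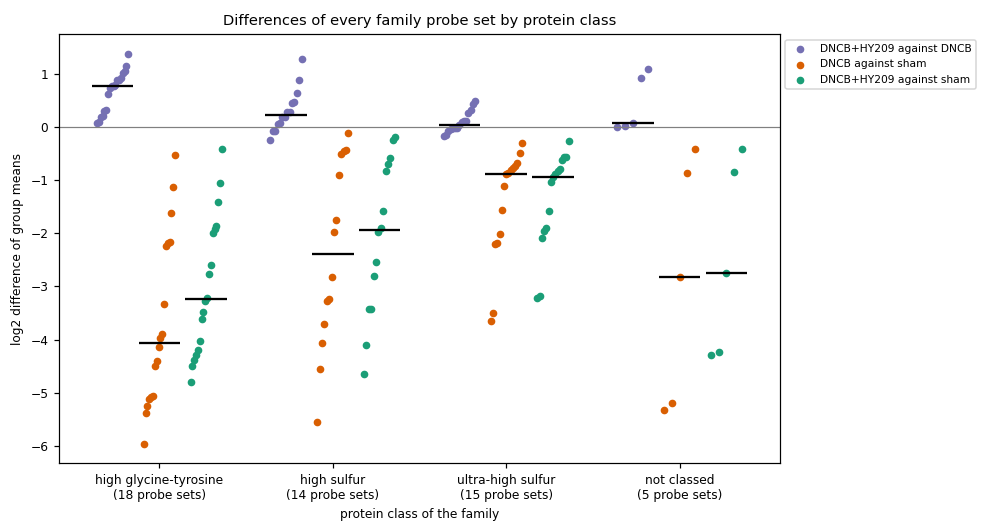
Log2 difference of group means for every probe set of the family (points), by protein class and comparison (colours), with the median of each class as a black bar. In DNCB against sham skin the medians are -4.06 for high glycine-tyrosine, -2.40 for high sulfur and -0.89 for ultra-high sulfur genes, and in DNCB+HY209 against DNCB skin they are 0.77, 0.23 and 0.04.

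The sham arrays differed from each other as widely as some groups did. Sham array 1 exceeded sham array 2 in 42 of the 52 probe sets, against 49.7% of all probe sets, with a median gap of 1.42 log2 units. The gap had a median of 2.59 over the 26 probe sets of chromosome 16, where all 26 were higher on sham array 1, and of 0.66 on chromosome 11 and 0.15 on chromosome 7. Median signals on the sham arrays were 9.03 and 5.87 for chromosome 16, 5.78 and 5.38 for chromosome 11 and 4.37 and 3.88 for chromosome 7. The last are near the array medians, which limits the size of a gap, so the chromosomes are not ranked by it. The gap reached 4.09 in Krtap16-3 (1425431_at), and in 10 probe sets sham array 2 was the higher. Without sham array 1 the median difference of the family was -1.61 in DNCB against sham skin, and without sham array 2 it was -2.98.

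The comparison of HY209 gel with vehicle in DNCB skin was not used to choose the family, although it shares the DNCB arrays with the one that was. Limma called 0 of the 43 tested probe sets in either direction at an adjusted p under 0.05, against 0% of all tested probe sets in each direction. At an unadjusted p under 0.05 the family had 0 lower and 0 higher, against 0.944% and 0.3% of all. No probe set of the 52 separated the groups, in either direction, where 2.56% of all were higher and 2.81% lower without overlap. The median log2 difference of the 52 was 0.26, against -0.0028 for all probe sets, with 42 above 0 and 10 below.

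The 5 tested members with the highest differences are given by array. Krtap8-1 had signals of 9.39, 6.64 and 7.35 in DNCB+HY209 skin, against 5.31, 6.06 and 7.90 in DNCB skin, a difference of 1.37 (SE 0.93, limma adjusted p = 0.9999). Krtap11-1 had 8.01, 5.31 and 5.94 in DNCB+HY209 skin, against 4.36, 4.58 and 6.51 in DNCB skin, a difference of 1.27 (SE 0.96, limma adjusted p = 0.9999). Krtap16-3 (1427549_s_at) had 7.00, 2.53 and 2.56 in DNCB+HY209 skin, against 2.69, 2.52 and 3.41 in DNCB skin, a difference of 1.15 (SE 1.20, limma adjusted p = 0.9999). In each of these genes array 1 was the highest of the DNCB+HY209 arrays, and the other two lay within the DNCB range. Gm10229 had 7.83, 4.85 and 4.54 in DNCB+HY209 skin, against 4.33, 4.71 and 4.91 in DNCB skin, a difference of 1.09 (SE 0.90). Krtap19-5 had 6.20, 2.95 and 3.06 in DNCB+HY209 skin, against 3.21, 2.90 and 2.94 in DNCB skin, a difference of 1.05 (SE 0.87). For Krtap12-1 (1450535_at) the signals were 6.72, 6.51 and 6.02 in DNCB+HY209 skin, against 6.76, 6.09 and 6.61 in DNCB skin, and the difference was -0.07 (SE 0.26). The other tested probe sets below 0 were 1422209_s_at (-0.15), 1420599_at (-0.04) and 1450540_x_at of Krtap5-1 (-0.02), while Krtap28-13 had 0.01.

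DNCB+HY209 array 1 exceeded every DNCB array in 47 of the 52 probe sets, against 25.3% of all probe sets, and both other DNCB+HY209 arrays in 51 of the 52, against 44.5%. Its median gap over the mean of those arrays was 2.47 log2 units in high glycine-tyrosine genes, 1.23 in high sulfur genes and 0.56 in ultra-high sulfur genes. On these 3 arrays 5, 2 and 0 of the 15 ultra-high sulfur probe sets exceeded the array median. For the 18 high glycine-tyrosine probe sets the counts were 16, 4 and 4. Dim signal limits the size of a gap, so the classes are not ranked by it. The gap reached 4.45 in Krtap16-3 (1427549_s_at). In 48 of the 52 neither DNCB+HY209 array 2 nor array 3 exceeded the highest DNCB array, against 72.5% of all probe sets. Without DNCB+HY209 array 1 the median difference of the family was -0.15 and 0 probe sets were called. The spike-in level was 10.89, 9.97 and 9.87 on the DNCB+HY209 arrays and the Gapdh ratio 3.24, 2.63 and 2.31, so array 1 was the highest of its group in both, and the part of these in the result was examined only by adding each as a term, which gave medians of 0.28 and 0.49.

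**Figure D3:**
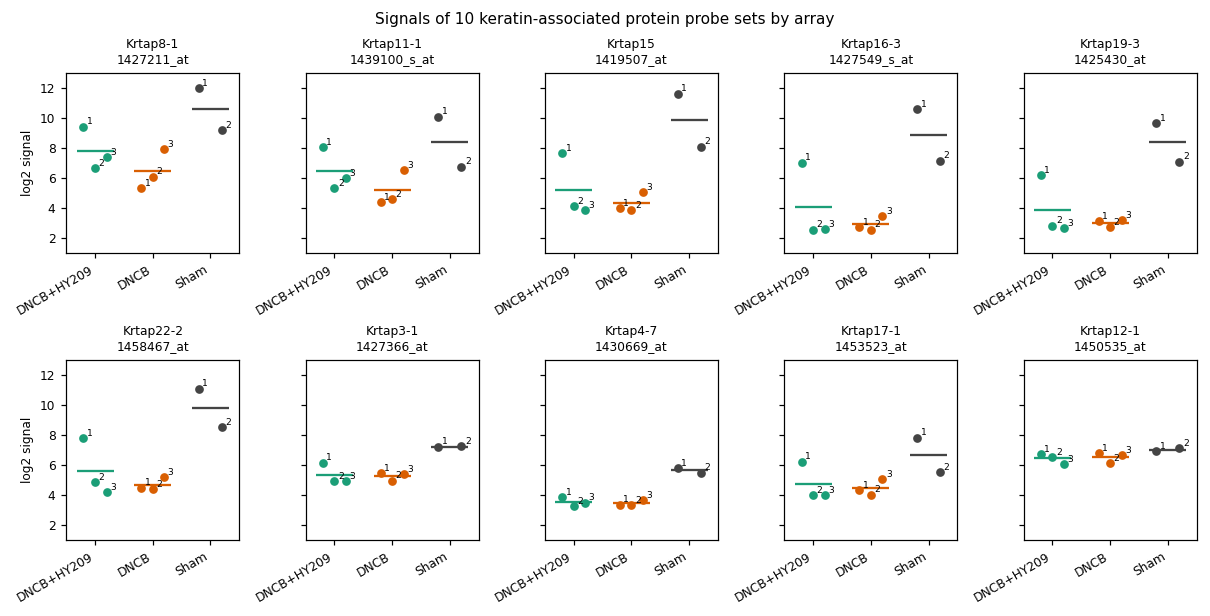
Log2 signal of 10 keratin-associated protein probe sets (panels) on each array (points, numbered by replicate) in DNCB+HY209, DNCB and sham skin, with the group mean as a line. DNCB+HY209 array 1 stands above its group in Krtap16-3 (7.00 against 2.53 and 2.56), DNCB array 3 stands above its group in Krtap8-1 (7.90), and Krtap12-1 lies between 6.02 and 7.10 on all arrays, with both sham arrays highest.

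In DNCB+HY209 skin against sham skin all 52 differences were again negative, from -4.81 to -0.20, with a median of -1.96, against -0.03 over all probe sets. This comparison shares the sham arrays with that of DNCB skin, so the 2 sets of differences are not independent and are given as values. The arrays did not overlap, DNCB+HY209 being lower, for 38 of the 52, against 20.3% of all, and 3 of the 43 tested were called lower, against 0.0608% of all. The 3 were Krtap4-7 (-2.09, SE 0.24), Krtap4-6 (-1.90, SE 0.30) and Gm11559 (-2.74, SE 0.37), in which DNCB+HY209 array 1 lay 0.49, 0.65 and 1.04 units above the mean of the other arrays of its group. The counts that follow, with arrays left out, are of the family alone, without the share of all probe sets called in the same fit. Leaving out DNCB+HY209 array 1 gave 26 calls, and leaving out DNCB array 2 gave 2. Leaving out either sham array, or the second or the third DNCB+HY209 array, gave 0, and leaving out DNCB array 1 or 3 gave 1. Krtap16-3, Krtap15 and Krtap19-3, with differences of -4.81, -4.65 and -4.49, had SEs of 1.34, 1.22 and 1.04. DNCB+HY209 array 1 stayed under sham array 1 in 51 of the 52, against 49.4% of all probe sets. It exceeded sham array 2 in 12 of them, against 51.8% of all, by 1.29 in Krtap11-1, 0.80 in Krtap7-1 and 0.68 in Krtap17-1.

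Other hair follicle genes were read on the same arrays. Of 12 measured keratins of the hair shaft, the filament proteins that this family binds, 0 rose and 0 fell in any of the 3 comparisons by limma. At an unadjusted p under 0.05, 0 differed in DNCB+HY209 against DNCB skin, where 0.944% of all tested probe sets were lower and 0.3% higher. In DNCB against sham skin 5 were lower, against 4.54% of all. Their median difference was -2.11 in DNCB against sham skin, beside -2.20 for the family, and no difference between the lists was tested. Their mean log2 signal was 7.67, 5.38 and 5.55 in DNCB+HY209 skin, 4.84, 4.97 and 6.32 in DNCB skin and 9.18 and 5.76 in sham skin. DNCB+HY209 array 1 thus lay 1.91 above sham array 2 in the hair keratins, while its median gap to sham array 2 in the family was -0.48. Krt35, an early keratin of the hair cortex, had 11.79, 8.55 and 8.53 in DNCB+HY209 skin, 6.25, 7.71 and 10.68 in DNCB skin and 11.73 and 7.85 in sham skin. Krt31, a later cortex keratin, had 9.92, 6.53 and 6.94 in DNCB+HY209 skin, 5.34, 5.96 and 8.22 in DNCB skin and 10.67 and 6.44 in sham skin. In both, DNCB array 3 and DNCB+HY209 array 1 exceeded sham array 2. This order held in 7 of the 12 hair keratins and not in Krt33b, Krt34, Krt81, Krt84 and Krt86. It held in 5 of the 52 family probe sets, namely Krtap13, Krtap5-2, Krtap5-4, 1427800_at of Krtap19-1 and 1450536_s_at of Krtap12-1. The order was not tested, and its share over all probe sets was not counted.

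Genes of the inner root sheath, the mould around the growing hair, followed the hair keratins. The share of all tested probe sets lower in DNCB against sham skin at an unadjusted p under 0.05 was 4.54%. The 10 measured had mean signals of 7.84, 5.80 and 5.96 in DNCB+HY209 skin, 5.12, 5.36 and 7.19 in DNCB skin and 8.54 and 6.77 in sham skin, with 0 called in any comparison by limma and 5 lower in DNCB against sham skin at an unadjusted p under 0.05. Krt25, an inner root sheath keratin, had 11.63, 8.94 and 8.48 in DNCB+HY209 skin, 6.97, 8.18 and 11.02 in DNCB skin and 12.04 and 10.70 in sham skin. DNCB array 3 lay between the sham arrays in this gene. Regulators of the hair matrix, 10 measured and 9 tested, had means of 7.30, 5.81 and 5.76 in DNCB+HY209 skin, 5.13, 4.99 and 6.48 in DNCB skin and 7.19 and 5.76 in sham skin, also with 0 called and 1 lower in DNCB against sham skin at an unadjusted p under 0.05. Among them Hoxc13, a homeobox factor known in mice to control hair keratin and Krtap genes, had 8.96, 6.70 and 6.73 in DNCB+HY209 skin, 5.47, 5.70 and 7.98 in DNCB skin and 9.37 and 7.01 in sham skin. Lef1, the partner of beta-catenin in hair formation, had 8.65, 6.63 and 6.23 in DNCB+HY209 skin, 5.98, 5.38 and 7.64 in DNCB skin and 8.25 and 6.46 in sham skin. On DNCB array 3 both regulators exceeded sham array 2.

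**Figure D4:**
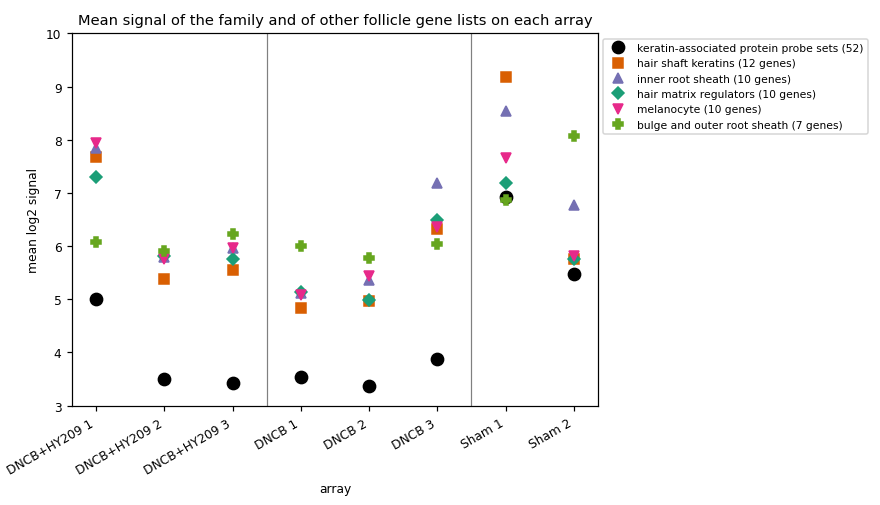
Mean log2 signal of the 52 family probe sets and of 5 lists of other follicle genes (symbols) on each array (horizontal axis, by group). Within the hair shaft keratins DNCB+HY209 array 1 (7.67) and DNCB array 3 (6.32) stand above sham array 2 (5.76), and within the family both (5.00 and 3.88) stand below it (5.48).

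The remaining lists of skin cells were read for the same arrays. Melanocyte genes, active in growing follicles, had means of 7.94, 5.76 and 5.97 in DNCB+HY209 skin, 5.08, 5.45 and 6.37 in DNCB skin and 7.66 and 5.81 in sham skin, with 0 of 10 called and 1 lower in DNCB against sham skin at an unadjusted p under 0.05. Of 7 bulge and outer root sheath genes 1 fell in DNCB against sham skin, the basal and bulge keratin Krt15 (-2.82, limma adjusted p = 0.0423). The list averaged 6.01, 5.77 and 6.03 in DNCB skin, against 6.88 and 8.08 in sham skin, so that sham array 2 was the higher, opposite to the family. Of 8 genes of the epidermis between follicles 1 fell, Krt77 (-5.27, limma adjusted p = 0.0248), and of 4 endothelial genes 1 rose, Cdh5 (2.20, limma adjusted p = 0.0275). Krt77 also fell in DNCB+HY209 against sham skin. The 9 other lists (dermal fibroblast, adipocyte, skeletal muscle, sebaceous gland, macrophage, T cell, neutrophil, cycling cell and hair shaft processing) had 0 calls by limma. At an unadjusted p under 0.05, DNCB+HY209 skin was lower than DNCB skin in 4 of 6 fibroblast and 2 of 4 endothelial genes, against 0.944% of all tested probe sets, and in 0 of any other list. At the same threshold DNCB skin was higher than sham skin in 4 of 4 endothelial, 3 of 5 macrophage, 3 of 8 epidermal and 1 of 5 hair shaft processing genes, against 10.7% of all. It was lower in 5 of 7 bulge, 2 of 3 adipocyte, 1 of 8 epidermal, 1 of 6 sebaceous and 1 of 5 hair shaft processing genes, against 4.54% of all. Fibroblast genes averaged 8.37, 8.58 and 8.52 in DNCB+HY209 skin, 9.47, 10.01 and 8.85 in DNCB skin and 8.86 and 9.69 in sham skin. Skeletal muscle genes averaged 10.85, 10.02 and 10.21 in DNCB+HY209 skin, 12.10, 10.52 and 9.32 in DNCB skin and 9.76 and 11.01 in sham skin. T cell and neutrophil means lay between 3.85 and 4.27 on every array, near the array medians. The part of tissue make-up in the family's values was not tested.

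Outside the family, 12386 genes with a probe set of their own were ranked by Pearson r with the mean profile of the 43 filtered members over the 8 arrays, as a description. The closest were Syngr1 (r = 0.986), Kif21a (0.982), Mmp7 (0.981), Tmem229b (0.979), Aldh2 (0.971), Zfp128 (0.969), C2cd2 (0.968), 2310061N02Rik (0.968), Zfp704 (0.968) and Hopx (0.964). Kif21a, a kinesin motor gene, had 6.53, 5.92 and 5.59 in DNCB+HY209 skin, 5.79, 5.89 and 6.07 in DNCB skin and 7.71 and 7.14 in sham skin. Hopx, a homeodomain gene known in mouse hair follicle bulge cells, had 9.10, 8.21 and 8.63 in DNCB+HY209 skin, 8.35, 8.20 and 8.73 in DNCB skin and 9.89 and 9.49 in sham skin. No hair keratin was among the 10. The r of genes below that rank is not given here, so the cut does not set the hair keratins apart from the family. The arrays share their group and overall quality, so such an r does not separate these sources.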

How the data were processed

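Signals of 8 Affymetrix arrays were used as the authors deposited them, on a log2 scale. Expression Console and MAS5 are named, without versions, in the submitters' processing notes; how arrays were scaled to each other is unknown. The labels name the 430A 2.0 array, whereas the table holds 45101 probe sets. Genes were named from the platform annotation.

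Control probe sets (64) were removed. Probe sets above the array median on at least 2 arrays (24675) entered 1 limma 3.58.1 fit (R 4.3.3) of the 3 groups, with an intensity trend and Benjamini-Hochberg adjustment at 0.05, checked on simulated data. Since no label ties an array to its own animal, a p-value here reflects variation among the arrays, which may be technical. The number of arrays limits the precision. Tables were prepared with Python 3.11.15. Members and gene lists were chosen with earlier results of these data known. Named members are, per protein class, the 4 with the highest mean signal and, per comparison, the 5 most positive and 5 most negative differences among those passing the filter; others named were added after their values were seen. Follicle genes named are among the 3 of each list with the highest mean, apart from hair keratins named only as lacking an order of arrays. Genes of other lists are those called. Protein class follows each family's usual assignment, in place of a planned computation from protein sequence, which was not made here. Normalization, filter, variance model, covariates, gene summary, replicate block and single arrays were varied. Same-numbered arrays deviated from their group means with correlations between -0.58 and 0.25, and different-numbered arrays between -0.65 and 0.59. Deviations within groups this small depend on each other, so these values neither show nor exclude that the numbers pair the samples.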

Additional observations from a re-analysis of the deposited data

How the results depend on the processing

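Besides the values reported, 25 settings were run, 8 of them leaving out 1 array. In DNCB+HY209 against DNCB skin no member was called under any of them. The median difference lay between -0.15 and 0.53 when 1 array was left out. In DNCB against sham skin the 11 probe sets called lower became 20 with quantile normalization, 2 when a signal above the median was asked of all 8 arrays, 20 with only the 2 groups compared, 0 with the spike-in term and 26 with the Gapdh ratio as a term. In DNCB+HY209 against sham skin the 3 called became 8, 0, 1 and 0 under the first 4 of these, 31 with array quality weights and 5 with signals below the array median set to it. The replicate block, added although it is unknown whether the numbers pair the samples, left 1 called in DNCB against sham and 0 in DNCB+HY209 against sham skin. With 1 array left out the counts ran from 0 to 26 in both, with medians between -2.98 and -1.61 in DNCB and between -2.74 and -1.19 in DNCB+HY209 against sham skin. Without sham array 1 and DNCB+HY209 array 1 together, chosen after seeing the data, 23 were called in each. A sham group of 1 array is assumed to vary like the other groups. These counts are of the family alone, without the share of all probe sets called under the same setting. Some settings leave fewer probe sets or arrays, and the causes of these moves were not tested. Without DNCB+HY209 array 1 the median in DNCB against sham skin stayed at -2.20, while the count became 26. That array belongs to neither group of this comparison and enters the fit through the shared estimate of spread.

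Of 1080 differences of named members against sham skin under these settings, 1078 were below 0. The family was chosen as low in DNCB against sham skin, and the settings refit the same arrays. The count is thus a description and supports nothing. In DNCB+HY209 against DNCB skin 22 of the values for named members changed sign, none of them called. Krtap5-1 (1450540_x_at) became 0.0046 with quantile normalization, 0.0155 with the Gapdh ratio and 7e-04 with the floor, and up to 0.104 with 1 array left out (0.0579 without DNCB array 3). Krtap28-13 became -0.0358 with array weights, -0.0163 with the floor and between -0.166 and 0.234 with 1 array left out (-0.0298 without the second DNCB+HY209 array). Krtap16-3 (1427549_s_at) became -0.0959 with array weights and lay between -0.332 (without DNCB+HY209 array 1) and 1.90 with 1 array left out. Krtap19-5 lay between -0.0149, again without that array, and 1.61. The values of these 3 genes were the same, at -0.166, -0.332 and -0.0149, without that array and sham array 1. Krtap12-1 (1450535_at) became 0.0058 with the Gapdh ratio and lay between -0.269 and 0.127 with 1 array left out, above 0 when DNCB array 1 (0.0654) or the third DNCB+HY209 array was dropped. The shared probe set 1420599_at became 0.066 with the Gapdh ratio and lay between -0.211 and 0.11 with 1 array left out (0.0575 without DNCB array 3).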
